A study of Mus musculus with 8 samples.

Results

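A set of 9 chemokine genes associated with inflammation around amyloid plaques was followed across hippocampus arrays of transgenic and littermate mice. The set was named gene by gene, as Ccl2, Ccl3, Ccl4, Ccl5, Ccl6, Ccl9, Ccl12, Cxcl10 and Cxcl16, and every probe set annotated to 1 of these symbols alone was taken. This gave 12 probe sets for 9 genes, of 45037 probe sets and 18193 genes in all. Where a gene had several, that with the highest 8-array mean stands for it, and the second probe set of Ccl6, Ccl9 and Cxcl16 is given beside it. The rule itself uses no difference between groups.

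Female Tg6799 mice carry transgenes, human APP among them, with familial Alzheimer's disease mutations, driven by Thy1 promoter sequence, which is active in neurons, and are called MT. Their littermates without the transgenes are called LM, although the strain label reads Tg6799 on all 8 arrays. The groups are LM4m and MT4m at 4 months, the early symptomatic age, and LM8m and MT8m at 8 months, the late symptomatic age, with 2 arrays each and no treatment. Total RNA of the whole hippocampus was hybridised, and it is not stated whether 2 arrays of 1 group hold RNA of separate animals, so p-values measure only how these samples spread, and that spread may be technical. Values are log2 expression values, and a genotype difference is MT minus LM on the log2 scale. In bulk tissue of this kind, more cells of a type and more RNA per cell cannot be told apart.

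Chemokines are small secreted proteins that guide cells along a gradient by binding G protein-coupled receptors on leukocytes, microglia and other cells. In the brain they are made mainly by microglia, astrocytes and endothelial cells once these meet amyloid, cytokines or dying cells. CCL3, CCL4 and CCL5 attract macrophages and T cells, and CCL3 and CCL5 bind CCR1, a receptor shared with the rodent chemokines CCL6 and CCL9. CCL2 and CCL12 bind CCR2 and draw monocytes out of the blood. CXCL10 is induced by interferon and binds CXCR3 on T and NK cells, and CXCL16 is a membrane-bound ligand of CXCR6 that ADAM10 and ADAM17 cut from the cell surface.

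Labels were checked on 3 genes before the chemokines were read. Thy1, whose promoter drives the transgenes, lay between 9.53 and 9.96 on the 4 LM arrays, at 11.73 and 11.82 in MT4m, and at 9.90 and 11.79 on the 2 arrays labelled MT8m. Cst7, a marker of plaque-associated microglia, was at most 2.18 in LM, 6.69 and 5.92 in MT4m, and 1.75 and 8.03 in MT8m. Gfap, the astrocyte intermediate filament, was at most 7.31 in LM, 8.45 and 8.21 in MT4m, and 7.17 and 9.80 in MT8m. The library labelled MT8m replicate 1 thus lay at or near the littermate level for all 3 genes, against its label, and results that it changes are given a second time with this library left out. That library was singled out by genes that mark the outcome, so values without it are no independent evidence, and MT8m is then 1 array assumed to vary like the other groups. In the published gene tables the same arrays carry the opposite genotype names to those in GEO, so the signs below oppose those tables. Thy1 goes with the GEO labels on 7 of the 8 arrays.

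The neighbouring genes Ccl6 and Ccl3 carried the largest genotype differences among the 9 chemokines, and no chemokine passed the test over the whole table on all 8 arrays. Ccl6 was 3.94-fold higher and Ccl3 2.30-fold higher in MT averaged over ages, Ccl12 1.56-fold and Cxcl10 1.31-fold, all on a scale that may understate changes of dim probe sets. Ccl4 and Ccl5 differed by 0.25 and 0.27, and Ccl2, Ccl9 and Cxcl16 by no more than 0.10 in either direction. Of the 9 values 7 were positive, and the median over the 9 genes was 0.27, beside -0.01 over all genes. The plot of values by array shows these patterns.

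**Figure D1:**
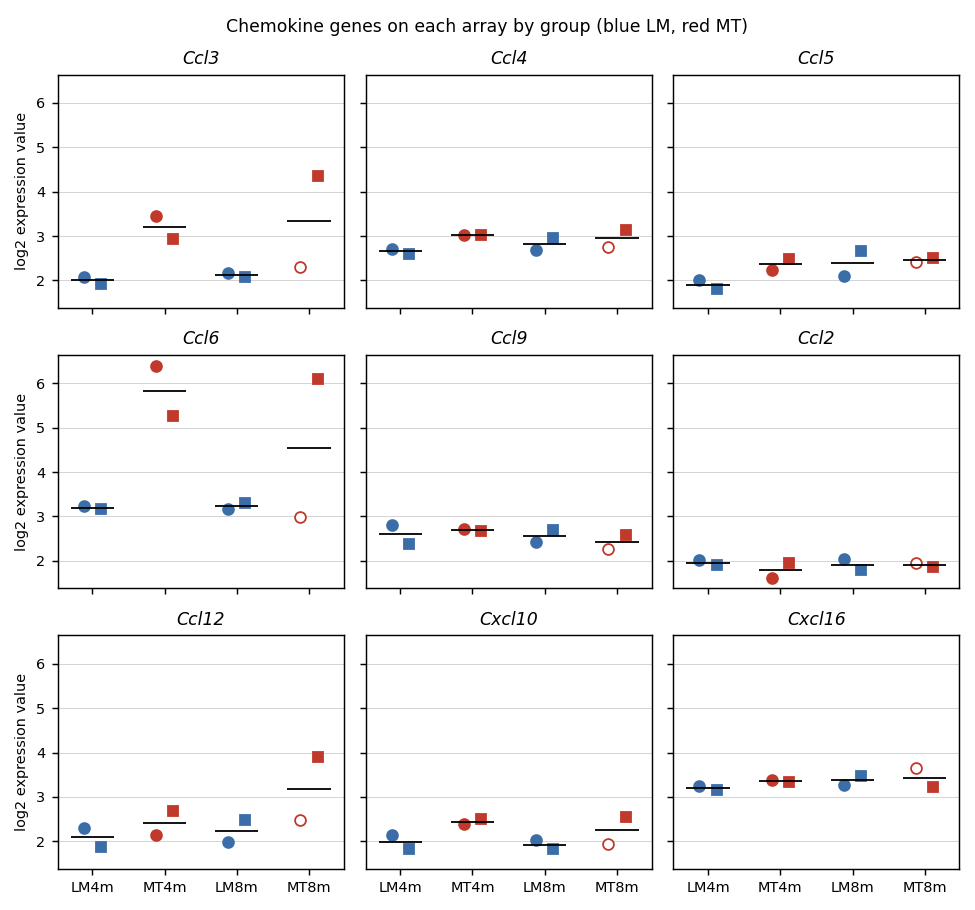
Log2 expression value (vertical axis, the same in every panel) of each chemokine gene on each array, by group (horizontal axis), replicate 1 as circles and replicate 2 as squares, blue for LM, red for MT and a black line at the mean of the 2 arrays. The open circle is the library labelled MT8m replicate 1. Ccl6 and Ccl3 stand well above the littermate arrays in MT4m and in MT8m replicate 2, whereas Ccl2 and Ccl9 stay within a narrow band.

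Ccl6 encodes a CCR1 ligand made by macrophages and microglia in rodents. Its values were 3.22 and 3.18 in LM4m, 6.40 and 5.27 in MT4m, 3.16 and 3.30 in LM8m, and 2.99 and 6.10 in MT8m. The 4 LM arrays lay within a band of 0.15, 3 MT arrays lay at least 1.97 above the highest of them, and the library labelled MT8m replicate 1 lay below all 4. At 4 months the difference was 2.64 ± 0.82 (SE), or 6.22-fold, and at 8 months 1.32 ± 0.82, or 2.49-fold. At 8 months the 2 MT arrays were 3.11 apart, more than the difference itself. Averaged over ages the difference was 1.98 ± 0.58 (limma unadjusted p = 0.00828, adjusted p = 0.775). Without the library labelled MT8m replicate 1 it was 2.76 and passed (limma adjusted p = 0.00880), and the difference at 8 months was 2.87 (limma adjusted p = 0.0518). Without MT8m replicate 2 it was 1.20, and the difference at 8 months was then -0.24. The second Ccl6 probe set, of a type that can match more than 1 transcript, read 2.16 and 2.08 in LM4m, 3.21 and 2.79 in MT4m, 2.04 and 2.12 in LM8m, and 2.16 and 4.09 in MT8m. MT8m replicate 2 is the highest array on this probe set and MT4m replicate 1 on the leading one, and its averaged difference was 0.97 ± 0.35.

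Ccl3 encodes MIP-1 alpha, a ligand of CCR1. Its values were 2.08 and 1.93 in LM4m, 3.45 and 2.94 in MT4m, 2.17 and 2.07 in LM8m, and 2.31 and 4.35 in MT8m. It was the only 1 of the 9 genes with all 4 MT arrays above all 4 LM arrays, and the library labelled MT8m replicate 1 was above the highest LM array by the smallest margin, 2.31 against 2.17. The difference was 1.19 ± 0.52 at 4 months and 1.21 ± 0.52 at 8 months, and 1.20 ± 0.37 averaged over ages (limma unadjusted p = 0.0111, adjusted p = 0.779). Without the library labelled MT8m replicate 1 the averaged difference was 1.71 (limma adjusted p = 0.00623) and that at 8 months 2.22 (limma adjusted p = 0.0160), and both passed. Without MT8m replicate 2 the same differences were 0.69 and 0.19. Among the 9 genes, Ccl3 and Ccl6 were the only ones to pass in any of these contrasts without the library labelled MT8m replicate 1, beside 0.315% of all probe sets for the averaged contrast and 0.211% for that at 8 months.

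Ccl4 and Ccl5 encode the macrophage and T cell attractants MIP-1 beta and RANTES. Ccl4 read 2.71 and 2.60 in LM4m, 3.02 and 3.02 in MT4m, 2.69 and 2.95 in LM8m, and 2.76 and 3.14 in MT8m. Its MT4m arrays and MT8m replicate 2 lay above all 4 LM arrays, by 0.07 at the least, and the averaged difference was 0.25 ± 0.11 (limma adjusted p = 0.853). Ccl5 read 2.01 and 1.81 in LM4m, 2.24 and 2.49 in MT4m, 2.10 and 2.67 in LM8m, and 2.41 and 2.51 in MT8m. Its MT4m arrays lay above the LM4m arrays (difference 0.46 ± 0.20), while at 8 months the highest array was a littermate and the difference was 0.08 ± 0.20. In littermates Ccl5 was 0.48 ± 0.20 higher at 8 than at 4 months (limma unadjusted p = 0.0414, adjusted p = 1).

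Ccl9, a further CCR1 ligand of rodents whose gene lies beside Ccl6, gave overlapping groups. It read 2.82 and 2.37 in LM4m, 2.72 and 2.66 in MT4m, 2.43 and 2.69 in LM8m, and 2.27 and 2.59 in MT8m. The averaged difference was -0.02 ± 0.13, and 0.08 ± 0.11 on its second probe set, whose values ran from 1.62 to 2.08.

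Of these genes 5 lie next to each other among the protein-coding genes of chromosome 11, in the order Ccl5, Ccl9, Ccl6, Ccl3, Ccl4. Along this run the averaged differences were 0.27, -0.02, 1.98, 1.20 and 0.25. The promoters of the middle 3 are shown because 2 genes that were high on the same MT arrays and 1 that was not are neighbours. Each is the 250 bases before the gene's start from RefSeq (build GRCm38.p6), at chr11:83649379-83649628 for Ccl3, chr11:83593088-83593337 for Ccl6 and chr11:83578637-83578886 for Ccl9, all on the minus strand and written 5′ to 3′. Capitals mark matches, on either strand, to 5 motifs: TATAA, the PU.1 box GAGGAA, the interferon-stimulated response element GAAANNGAAA, the AP-1 site (TGACTCA or TGAGTCA) and the NF-kB consensus.
Ccl3: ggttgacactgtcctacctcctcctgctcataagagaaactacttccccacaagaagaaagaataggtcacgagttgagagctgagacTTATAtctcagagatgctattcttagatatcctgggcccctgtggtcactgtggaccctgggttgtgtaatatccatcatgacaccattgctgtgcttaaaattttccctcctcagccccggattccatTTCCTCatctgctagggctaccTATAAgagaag
Ccl6: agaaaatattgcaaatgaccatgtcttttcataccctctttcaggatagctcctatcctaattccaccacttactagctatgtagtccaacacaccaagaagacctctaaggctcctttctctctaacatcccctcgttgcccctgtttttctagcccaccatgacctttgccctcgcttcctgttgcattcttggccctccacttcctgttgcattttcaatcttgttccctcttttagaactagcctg
Ccl9: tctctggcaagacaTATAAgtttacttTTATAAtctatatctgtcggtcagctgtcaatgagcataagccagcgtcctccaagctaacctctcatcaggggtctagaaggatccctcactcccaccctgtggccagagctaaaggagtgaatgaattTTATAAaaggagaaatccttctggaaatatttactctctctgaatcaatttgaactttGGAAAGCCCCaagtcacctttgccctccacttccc
The Ccl3 window holds TATAA at -11 to -7 from the start and at -162 to -158 on the opposite strand, and GAGGAA at -33 to -28 on the opposite strand. The Ccl6 window holds none of the 5 motifs as searched here, of which the NF-kB consensus is given by name only. The Ccl9 window holds 5 TATAA matches, some of them the same bases read on both strands, and 1 NF-kB consensus at -35 to -26. Over 32851 windows of this length, TATAA was found in 22.8%, GAGGAA in 23.3%, GAAANNGAAA in 2.98%, the AP-1 site in 4.46% and the NF-kB consensus in 3.90%. These matches describe the letters and not binding.

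Of the CCR2 ligands, Ccl2 spanned little over the arrays and Ccl12 was high on 1 of them. Ccl2, which encodes MCP-1, read 2.02 and 1.90 in LM4m, 1.62 and 1.95 in MT4m, 2.04 and 1.79 in LM8m, and 1.95 and 1.87 in MT8m. All 8 arrays lay within 0.42, and the averaged difference was -0.09 ± 0.11. Ccl12, which encodes MCP-5, read 2.31 and 1.88 in LM4m, 2.15 and 2.69 in MT4m, 1.98 and 2.48 in LM8m, and 2.49 and 3.89 in MT8m. Only MT8m replicate 2 stood clear of the other 7 arrays, and the library labelled MT8m replicate 1 was above the higher LM8m array by less than 0.01. The difference was 0.33 ± 0.42 at 4 months and 0.96 ± 0.42 at 8 months (limma unadjusted p = 0.0483, adjusted p = 1.00). Averaged over ages it was 0.64 ± 0.29, 0.99 without the library labelled MT8m replicate 1 (limma adjusted p = 0.169) and 0.29 without MT8m replicate 2.

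Cxcl10 encodes the interferon-induced ligand of CXCR3. It read 2.13 and 1.84 in LM4m, 2.39 and 2.50 in MT4m, 2.03 and 1.82 in LM8m, and 1.93 and 2.55 in MT8m. As for Ccl6, Ccl3 and Ccl4, 3 MT arrays lay above all 4 LM arrays, here by at least 0.25, and the library labelled MT8m replicate 1 lay between the LM8m arrays. The averaged difference was 0.39 ± 0.15 (limma unadjusted p = 0.0294, adjusted p = 0.853), and 0.54 without that library (limma adjusted p = 0.228). Without MT8m replicate 2 it was 0.23, and the difference at 8 months fell from 0.32 to 0.01. Its promoter, 250 bases at chr5:92348890-92349139 on the minus strand (RefSeq, GRCm38.p6), is shown with the same motifs in capitals because interferon genes are set beside it further on.
Cxcl10: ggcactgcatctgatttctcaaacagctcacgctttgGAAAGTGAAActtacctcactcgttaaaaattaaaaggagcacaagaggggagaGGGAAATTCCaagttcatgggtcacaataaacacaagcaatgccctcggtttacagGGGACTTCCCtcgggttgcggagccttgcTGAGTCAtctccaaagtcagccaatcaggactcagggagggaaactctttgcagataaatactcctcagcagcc
The window holds GAAANNGAAA at -213 to -204, the NF-kB consensus at -159 to -150 and at -103 to -94, and the AP-1 site at -74 to -68.

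Cxcl16 is both a chemokine and a scavenger receptor on the cell surface. It read 3.24 and 3.16 in LM4m, 3.37 and 3.33 in MT4m, 3.28 and 3.48 in LM8m, and 3.64 and 3.22 in MT8m. The highest array was the library labelled MT8m replicate 1, MT8m replicate 2 was lower than both LM8m arrays, and the averaged difference was 0.10 ± 0.11. The second probe set, whose highest value was 2.71 on MT8m replicate 2, gave 0.02 ± 0.18. The sheddases Adam10 and Adam17 differed by 0.09 ± 0.13 and 0.12 ± 0.14, with both groups overlapping.

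**Figure D2:**
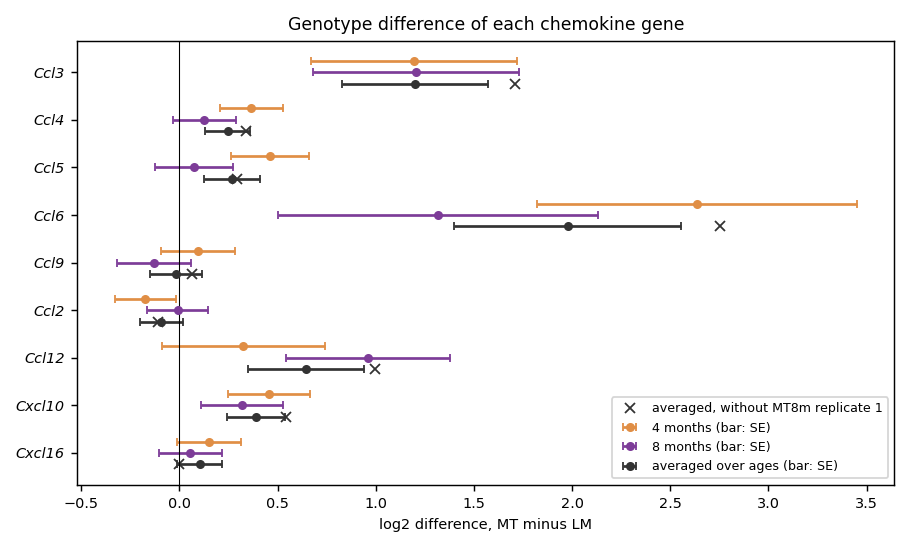
Genotype difference (horizontal axis, log2, MT minus LM) of each chemokine gene at 4 months, at 8 months and averaged over ages, with bars of 1 standard error from the limma fit, and crosses for the averaged value without the library labelled MT8m replicate 1. The values of Ccl6 and Ccl3 lie to the right of the rest, and leaving that library out moves Ccl6 from 1.98 to 2.76 and Ccl3 from 1.20 to 1.71.

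Counted over the table, the 9 chemokines gave no call on all 8 arrays. In the averaged genotype contrast 0 of 9 passed at a limma adjusted p under 0.05, beside 0.0600% of the 45037 probe sets, all of which were lower in MT, and 3 of 9 (Ccl3, Ccl6 and Cxcl10) had an unadjusted p under 0.05, beside 5.76%. At 4 months 0 passed by limma, beside 0%, and 2 (Ccl5 and Ccl6) had an unadjusted p under 0.05, beside 4.86%. At 8 months 0 passed by limma, beside 0.0200%, and 2 (Ccl3 and Ccl12) had an unadjusted p under 0.05, beside 3.39%. In the limma F test over the 4 groups, the nearest to the 4-class test of the study's methods, 1 gene (Ccl6, unadjusted p = 0.0323) was under 0.05, beside 4.89%, and 0 passed after adjustment (Ccl6 adjusted p = 0.974), beside 0.0133%. The Ccl6 call in the F test is lost without either LM4m array or either MT4m array, when 0 of 9 are under 0.05, while 4 are under it without the library labelled MT8m replicate 1, beside 6.59% of probe sets, and 3 without MT8m replicate 2, beside 5.85%.

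Groups without overlap were counted next. At 4 months both MT arrays were above both LM arrays for 6 of 9 chemokines (Ccl3, Ccl4, Ccl5, Ccl6, Cxcl10 and Cxcl16), beside 14.8% of the 18193 genes. At 8 months this held for 2 (Ccl3 and Ccl12), beside 13.3%. All 4 MT arrays were above all 4 LM arrays for 1 (Ccl3), beside 1.28%, and without the library labelled MT8m replicate 1 for 4 (Ccl3, Ccl4, Ccl6 and Cxcl10), beside 3.74%. The count of 1 over both ages was 2 without MT4m replicate 1 and 3 without LM8m replicate 2. The share of all genes was not counted with either of these arrays left out, so these counts have no background beside them. For 0 of 9 were the MT arrays all below the LM arrays, over both ages (2.42% of all genes), at 4 months (22.9%) or at 8 months (13.8%).

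Age changed no chemokine past the test. In LM, 0 of 9 passed by limma, beside 0%, and 1 (Ccl5) had an unadjusted p under 0.05, beside 3.45%. In MT, 0 passed by limma, beside 0%, and 0 had an unadjusted p under 0.05, beside 5.70%. The values farthest from 0 there were -1.29 ± 0.82 for Ccl6 and 0.77 ± 0.42 for Ccl12, and they rest on the MT8m arrays. Without the library labelled MT8m replicate 1 they were 0.26 and 1.47, and without MT8m replicate 2 -2.85 and 0.07, so that the sign for Ccl6 turns. The genotype difference at 8 months was not shown to differ from that at 4 months for any of them: the interaction was -1.32 ± 1.15 for Ccl6, 0.64 ± 0.59 for Ccl12 and 0.01 ± 0.74 for Ccl3, 0 of 9 passed by limma, beside 0%, and 0 had an unadjusted p under 0.05, beside 2.58%. Without the library labelled MT8m replicate 1 the interaction was 0.24 for Ccl6, 1.34 for Ccl12 and 1.03 for Ccl3, and without MT8m replicate 2 it was -2.88 for Ccl6, -0.07 for Ccl12 and negative for Ccl3 too, with none passing (limma adjusted p from 0.995 to 0.999).

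Averaged over ages, the receptors Ccr1, Ccr2, Cxcr3 and Cxcr6 differed by at most 0.17, but most receptors lay low on the scale. Of 23 listed chemokine receptors 21 had a probe set named to them alone, the median averaged difference was 0.00, and 0 passed by limma. For 17 of the 21, Ccr1, Cxcr3 and Cxcr6 among them, the mean was under the median probe set mean of 2.48, where a change may not show. Ccr1, the receptor of CCL3, CCL5, CCL6 and CCL9, differed by -0.01 ± 0.11, Ccr2 by 0.17 ± 0.10, Cxcr3 by 0.08 ± 0.11 and Cxcr6 by -0.10 ± 0.09. Cx3cr1, the microglial receptor of the neuronal ligand CX3CL1, read 5.86 and 5.85 in LM4m, 6.57 and 6.30 in MT4m, 5.81 and 5.92 in LM8m, and 5.67 and 7.41 in MT8m, so that the library labelled MT8m replicate 1 was again the lowest of the 8 arrays. Its averaged difference was 0.63 ± 0.31 (limma adjusted p = 0.853). Ccrl2, a receptor that binds chemerin without signalling, differed by 0.32 ± 0.09 (limma unadjusted p = 0.00630, adjusted p = 0.757). Alone of the 21, Ccrl2 had all 4 MT arrays above all 4 LM arrays, beside 1.28% of all genes. Ackr1 differed by 0.25 ± 0.12 and Ccr8 by -0.18 ± 0.09.

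The other chemokine ligands gave smaller differences than Ccl6, Ccl3 and Ccl12. Of 26 listed, 25 were measured, their median averaged difference was 0.02, and 0 passed by limma. The mean was under the median probe set mean of 2.48 for 19 of the 25, where a change may not show. Xcl1, a T and NK cell chemokine, was the only 1 of the 25 with an unadjusted p under 0.05, beside 5.76% of probe sets. Xcl1 differed by 0.26 ± 0.09. Its values lay between 1.36 and 1.80 on all 8 arrays. It was also the only 1 of the 25 with all 4 MT arrays above all 4 LM arrays, beside 1.28% of all genes. Cxcl12 and Cxcl14, which brain cells make at rest, differed by -0.23 ± 0.15 and -0.29 ± 0.15. Pf4, a platelet and perivascular macrophage chemokine, differed by -0.41 ± 0.23, with 3.07 on LM4m replicate 1 and 3.07 on LM8m replicate 2 against 2.16 to 2.33 on the other 6 arrays.

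**Figure D3:**
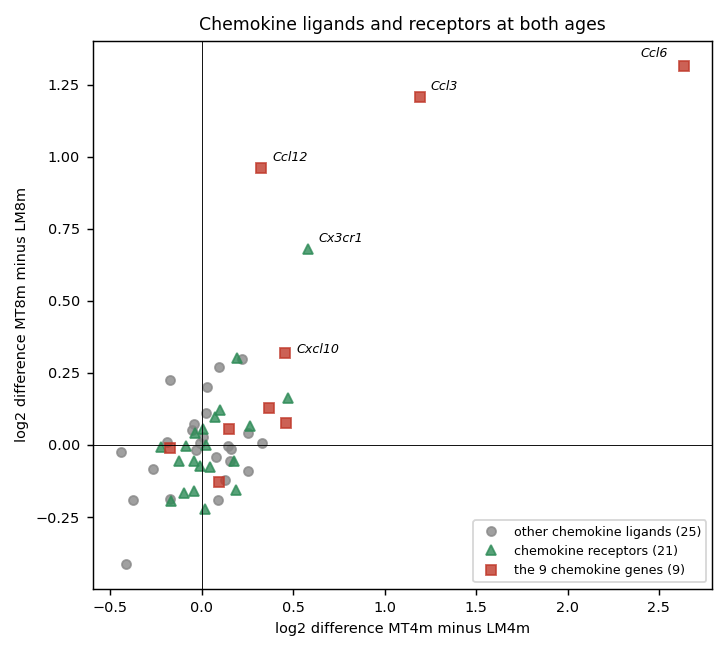
Log2 genotype difference at 4 months (horizontal axis) and at 8 months (vertical axis) of the 9 chemokine genes (red squares), 25 other chemokine ligands (grey circles) and 21 chemokine receptors (green triangles). Ccl6, Ccl3, Ccl12 and Cx3cr1 lie away from the cloud around 0; the values at 8 months include the library labelled MT8m replicate 1.

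Genes that induce chemokines were read next. The NF-kB and inflammatory list had 16 of 17 genes measured, a median averaged difference of 0.06 and 0 passing by limma. Cd14, a co-receptor of toll-like receptors, read 3.33 and 2.77 in LM4m, 3.96 and 3.79 in MT4m, 3.04 and 3.04 in LM8m, and 2.50 and 5.45 in MT8m, a difference of 0.88 ± 0.52. Tlr2 differed by 0.47 ± 0.31 and Icam1, an adhesion molecule, by 0.22 ± 0.24, with MT8m replicate 2 the highest array for each, and Nfkbie, an NF-kB inhibitor, by -0.27 ± 0.16. The interferon list had 14 of 17 genes measured, a median of 0.25 and 0 passing by limma. Its mean deviation from the 8-array mean was 0.64 on MT8m replicate 2 and between -0.23 and 0.12 on the other 7 arrays. The antiviral gene Rsad2 differed by 0.59 ± 0.27, Ifit3 by 0.55 ± 0.39, Ifit2 by 0.32 ± 0.20 and the interferon regulator Irf7 by 0.32 ± 0.14. Of the 14, 10 were higher in MT, and Ifitm3 (-0.20), Irf1 (-0.14), Bst2 (-0.08) and Ifit1 (-0.06) were lower. Cxcl10, an interferon target, read 2.39 and 2.50 in MT4m and 2.55 on MT8m replicate 2. With the library labelled MT8m replicate 1 left out, MT arrays lay above all LM arrays for 3 of the 14 interferon genes. These were Rsad2, Ifit2 and Irf7, beside 3.74% of all genes. With all 4 MT arrays this held for Irf7 alone, beside 1.28%. The part of interferon in the Cxcl10 values was not tested.

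Genes of the microglia lists were among those most like Ccl3 and Ccl6. Among 1308 genes that span at least 1 log2 unit, Ccl3 was followed most closely over the 8 arrays by C1qc (Pearson r = 0.988), a complement subunit, Clec7a (0.988), a receptor of plaque-associated microglia, and Olfml3 (0.985). For Ccl6 they were Tyrobp (0.982), an adaptor of TREM2, Cst7 (0.980) and Hexa (0.979), a lysosomal enzyme. For Ccl12 they were Sh3bp2 (0.980), Adap2 (0.968) and Glycam1 (0.957), each highest on MT8m replicate 2. These correlations describe 8 arrays that fall into separate levels, and carry no test.

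Microglia markers were high on the same 3 MT arrays as Ccl6 and Ccl3 and not on the library labelled MT8m replicate 1, and their part in the chemokine values was not tested. The mean deviation of 11 measured microglia markers from the 8-array mean was -0.68 to -0.28 on the LM arrays and 0.72 and 0.43 in MT4m. It was -0.52 on the library labelled MT8m replicate 1 and 1.42 on MT8m replicate 2. The mean deviation of 15 plaque-associated microglia markers was -0.79 to -0.25 in LM, 0.81 and 0.39 in MT4m, and -0.56 and 1.57 in MT8m. Their median averaged differences were 1.02 and 0.72, and 0 genes of either passed by limma. With the library labelled MT8m replicate 1 left out, MT arrays lay above all LM arrays for 9 of 11 and 9 of 15. That share was 3.74% over all genes. Cst7, 1 of the 15, was among the genes that singled that library out, so these counts are no independent evidence. On all 4 MT arrays the counts were 1 of 11 and 1 of 15, beside 1.28%. P2ry12, a homeostatic microglial receptor, differed by 1.61 ± 0.45, Gpr34 by 1.84 ± 0.66, C1qb by 1.31 ± 0.64, C1qc by 1.37 ± 0.44, Trem2 by 1.87 ± 0.60, Tyrobp by 1.88 ± 0.57, Clec7a by 2.37 ± 0.79 and Cst7 by 3.48 ± 1.09. Astrocyte markers (8 measured) had a median of 0.14 and a mean deviation of 0.67 on MT8m replicate 2. Gfap differed by 1.28 ± 0.46, Aqp4 by 0.56 ± 0.29, Slc1a3 by 0.20 ± 0.20 and S100b by 0.15 ± 0.15. Of the 8, 5 were higher in MT, and Aldh1l1 (-0.14), Gja1 (-0.13) and Aldoc (-0.0009) were not.

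Markers of blood-borne cells moved little, but most lay low on the scale, where a change may not show. The mean was under the median probe set mean of 2.48 for 6 of 7 monocyte and neutrophil markers. For T and NK cell markers this held for 6 of 9. Monocyte and neutrophil markers (7 of 9 measured) had a median of 0.07 and mean deviations of -0.10 to 0.13. S100a8, S100a9 and Camp lay between 1.40 and 2.27 on all arrays. At 8 months S100a8 differed by 0.35 ± 0.13 (limma unadjusted p = 0.0226, adjusted p = 0.9998). T and NK cell markers (9 of 12) had a median of 0.03 and mean deviations of -0.08 to 0.08, with Cd3e at -0.14 ± 0.13, Cd4 at 0.12 ± 0.10, Cd3d at 0.10 ± 0.09 and Gzma at 0.07 ± 0.10. Endothelial markers (7 of 8) had a median of 0.15, and 5 of the 7 were higher in MT. Flt1 differed by 0.34 ± 0.14, Tek by 0.27 ± 0.15, Pecam1 by 0.22 ± 0.09 and Cldn5 by 0.15 ± 0.22. Kdr (-0.12) and Cdh5 (-0.11) were lower in MT. Neuron markers (8 measured) had a median of -0.12, with Wfs1 at -0.44 ± 0.29, Snap25 at 0.31 ± 0.11, Prox1 at -0.24 ± 0.25 and Slc17a7 at -0.17 ± 0.24.

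Markers of tissue at the border of the hippocampus differed more. Of 9 measured choroid plexus markers 8 fell in MT past the limma test averaged over ages, beside 0.0600% of all probe sets. The median of the 9 was -2.04. Kcnj13 fell by 3.41 ± 0.30 (limma adjusted p = 0.00997) and Clic6 by 2.64 ± 0.22 (limma adjusted p = 0.00848), Folr1 by 2.44 ± 0.25 and Sostdc1 by 2.33 ± 0.23 (limma adjusted p = 0.0198 for each). Mean deviations of this list were 0.67 to 1.84 on the 4 LM arrays and -1.32 to -0.97 on the 4 MT arrays, so that the library labelled MT8m replicate 1, at -1.09, went with its label here while Thy1, Cst7, Gfap, Ccl6 and Cxcl10 did not. Meningeal markers (8 measured, median -0.50) and perivascular macrophage markers (7 measured, median -0.14) were high on LM4m replicate 1 and LM8m replicate 2, as Pf4 was. Igf2 differed by -1.94 ± 0.27, Col1a2 by -1.26 ± 0.47, Aldh1a2 by -0.82 ± 0.39, Slc6a13 by -0.60 ± 0.40, F13a1 by -0.62 ± 0.37, Mrc1 by -0.30 ± 0.23, Cbr2 by -0.17 ± 0.12 and Lyve1 by -0.14 ± 0.09, and 0 genes of these 2 lists passed by limma. On these arrays, both of littermates, Ccl6 and Ccl3 were not high, at 3.22 and 3.30 and at 2.08 and 2.07. The part of such cells in the chemokine values was not tested.

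**Figure D4:**
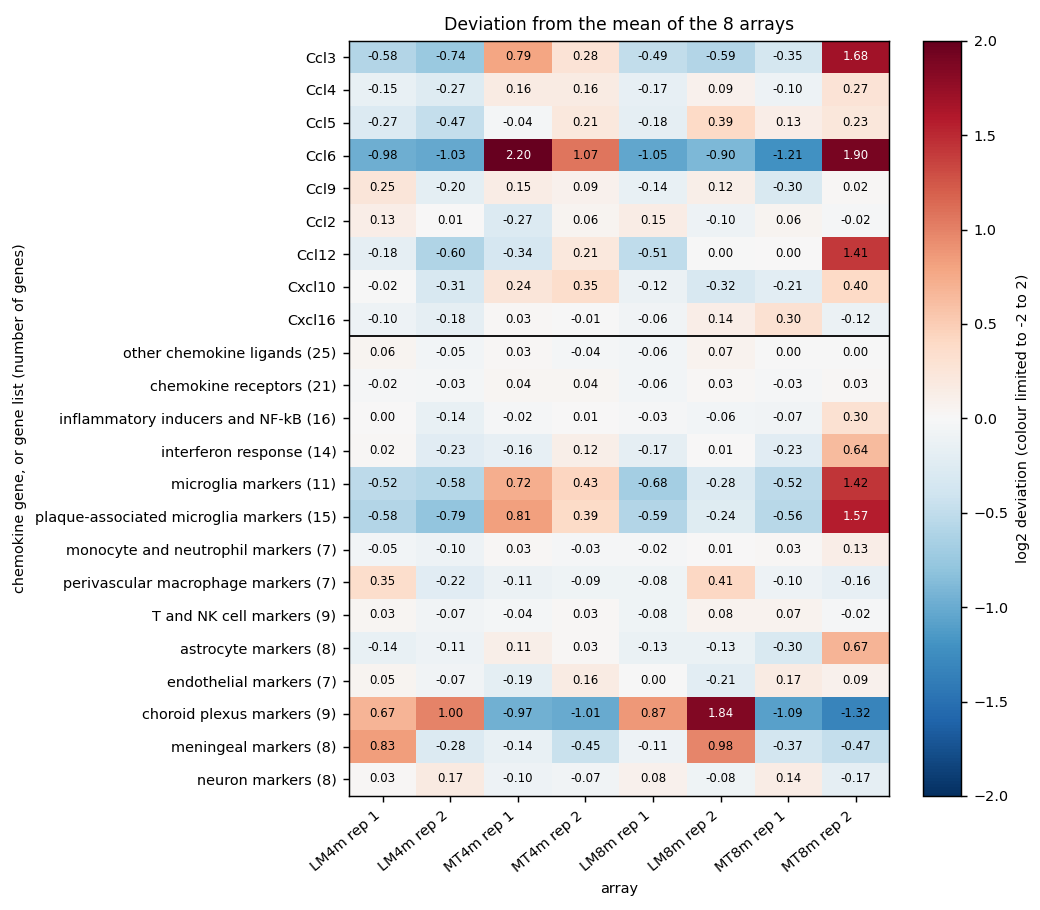
Deviation from the mean of the 8 arrays (colour and printed value, log2) of each chemokine gene (upper rows) and of the mean of each gene list with the number of its genes (lower rows), on each array (columns). Ccl6 and Ccl3 rows follow those of the microglia lists, with 2.20 for Ccl6 on MT4m replicate 1 and 1.90 on MT8m replicate 2, while the choroid plexus row is positive on the 4 LM arrays and negative on the 4 MT arrays.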

How the data were processed

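Female mouse hippocampus RNA was measured on 8 one-colour Affymetrix arrays, 2 for each of LM4m, MT4m, LM8m and MT8m, grouped by the GEO descriptions. RMA was run by the authors with affy, whose version is not given in the sources used here. The deposited log2 table holds 45101 probe sets, and 64 controls were left out. No detection calls were analysed. Values ran from 0.979 to 12.8 and array medians from 2.44 to 2.51, so the offset of the scale is unknown, and differences of dim probe sets may be understated. Ccl2, Ccl5 and Cxcl10 lay under the median probe set mean of 2.48. Ccl3 and Ccl12 exceeded it only through MT arrays: Ccl3 lay under it on all 4 LM arrays and the LM means of Ccl12 did too. Correlations between arrays were 0.985 to 0.993. Precision is limited by the small number of arrays.

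The GEO probe annotation gave 1 symbol for 34945 probe sets, several for 932 and none for 9160; 34741 were matched by Entrez identifier to a RefSeq table (GRCm38.p6, for names and neighbours). The 4 groups were fitted in limma 3.58.1 by lmFit and eBayes (R 4.3.3, 4 residual degrees of freedom) over 45037 probe sets. Benjamini-Hochberg adjustment was over all of them, with a threshold of 0.05 on the adjusted p. Limma p-values are two-sided. The fit was tested on simulated data.

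Members and gene lists were chosen with earlier results of these data known. Named were all members, up to 4 genes of each list with the largest averaged difference, the members' receptors and sheddases, Thy1, Cst7 and Gfap, and for members spanning at least 1 log2 unit the 3 genes most like them. Promoters (5 of 9 members matched) were searched in 250 bases with motifs chosen after the sequences had been seen. Alternatives were cyclic loess, quantile normalization, dim probe sets left out, 1 probe set per gene, a trended robust prior, the most variable probe set, an additive model, the 4 arrays of an age or genotype alone, a block by title number, and leaving out each array. A crossed pairing, the differences at each age, the age difference in MT and the interaction under every alternative, and the counts of arrays without overlap without the library labelled MT8m replicate 1 were added after seeing the data.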

Additional observations from a re-analysis of the deposited data

How the results depend on the processing

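No chemokine passed the adjusted test under any alternative other than leaving out the library labelled MT8m replicate 1. The limma F test at an unadjusted p, which called 1 of 9 as reported, called 0 with a trended robust prior; the cause was not tested. With each array left out, the number of chemokines passing was 0 to 2 for the averaged genotype contrast, 0 to 1 at 8 months, 0 to 4 in the unadjusted F test and 0 to 2 in the adjusted F test, and the number without overlap 1 to 4; each of these highest counts came without the library labelled MT8m replicate 1. Of 687 recomputed member values (genotype differences, age in MT and interaction) 648 kept their side and sign, 3 newly passed, all without that library, and 36 that passed nowhere changed sign. Over all probe sets, 27 passed for the averaged contrast (5 to 142 with an array left out), 0 at 4 months (0 to 24 under other settings, 0 to 12 with an array left out), 9 at 8 months (0 to 22, and 1 to 95), 6 in the F test (6 to 24, and 0 to 58), 0 for age in MT (0 to 2, and 0 to 2) and 0 for the interaction (0 to 1, and 0 to 1).

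The title numbers are shared across ages only as numbers: same-numbered arrays correlated at r = 0.241 in LM and -0.175 in MT. With the number as a replicate block, 0 chemokines and 0 probe sets passed for age in LM, age in MT and the interaction. With the MT numbers crossed, a choice made after seeing the data, 3, 2 and 1 probe sets passed and 0 chemokines. No genotype contrast can take this block, since LM and MT share no number. Probe sets near the lower end of the scale, among them Ccl2, Ccl5 and Cxcl10, have no detection call here, so whether they were above background is not known.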
